A study of Bos taurus with 16 samples.

Results

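The complement system of the spleen was described here through 32 genes that encode its components, receptors and regulators, chosen by symbol from the classical, lectin, alternative and terminal pathways together with the receptors for their fragments and the proteins that restrain them. Of the 32 genes, 31 were found on the array, each as 1 transcript cluster, the array's unit of several probes for a gene that are combined into 1 value. The remaining gene, ITGAX, had no cluster with that symbol and was not analysed here. The 31 clusters stood among 24997 clusters tested.

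Spleen RNA came from 16 crossbred steers, about 1 year old at the start of an 84-day feeding trial on a concentrate diet, and was measured with 1 Affymetrix Bovine 1.1 ST array per steer. The steers were taken from those ranked farthest from the herd mean in each quadrant of weight gain by feed intake, with a lower-ranked animal of another breed used where 1 sire breed was too common, and formed 4 groups of 4. High gain-high intake and high gain-low intake were the quadrants of fast growth. The slow-growing quadrants were low gain-low intake and, with the larger appetite, low gain-high intake. All 16 received the same diet, which held a supplement with monensin, and the groups were observed phenotypes rather than assigned ones. Each slaughter day held 1 steer of every group, but the day and the breed of each steer were not given, so neither could enter the fit. The paper does give breed composition by group, and it was unequal, with several breeds present in only a single group. Differences between groups therefore cannot be told apart from differences between breeds. Steers are numbered 1 to 4 within a group as names only.

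Complement is a cascade of plasma proteases that tags microbes, immune complexes and dying cells. The classical pathway starts when C1q binds antibody or a damaged surface, the lectin pathway when a lectin binds microbial sugars, and the alternative pathway from slow spontaneous activation of C3. All of them cleave C3, after which receptors on phagocytes take up the coated particle and C5 to C9 can assemble into a membrane pore. The liver makes most of the circulating components, while macrophages are a main source of C1q. In the spleen, macrophages of the red pulp meet blood that can carry complement-coated particles, while most B cells lie in the white pulp.

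The deposited values were log2 array signals after a transformation that stretches the signal distribution, so a difference of 1 is not a calibrated 2-fold change in RNA. Array medians lay between 8.24 and 8.37, and arrays correlated at 0.955 to 0.986. The scale ended at 19.93, where 21 clusters sat on all 16 arrays. The background level of an array was taken as the 95th percentile of 815 olfactory receptor clusters, and lay between 8.34 and 8.76. Of 11 macrophage markers, 6 T cell markers and 7 B cell and follicular dendritic cell markers found, 11, 6 and 6 were above background on all 16 arrays. Of 8 hepatocyte markers, 0 were above background on all 16 arrays and 7 were on no array.

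Of the 31 complement genes, 20 were above background on all 16 arrays, or 64.5%, beside 39.0% of the 18790 clusters with 1 gene symbol and 36.9% of all 24997 clusters. A further 4 were above it on some arrays and 7 on none. By branch, the classical pathway held 6 of 7 genes above background and the receptors 4 of 4. The membrane regulators held 3 of 3, the soluble regulators 3 of 4 and the alternative pathway 2 of 3. The lectin proteases held 0 of 2 and the terminal pathway 1 of 7. C3, which had a branch of its own, was above background on all 16 arrays. Signals of different clusters depend on their probes, so the level of each gene was compared with the background and across steers only, not with that of another gene. Where ranges over the steers are ranked below, they depend on the probes too.

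**Figure D1:**
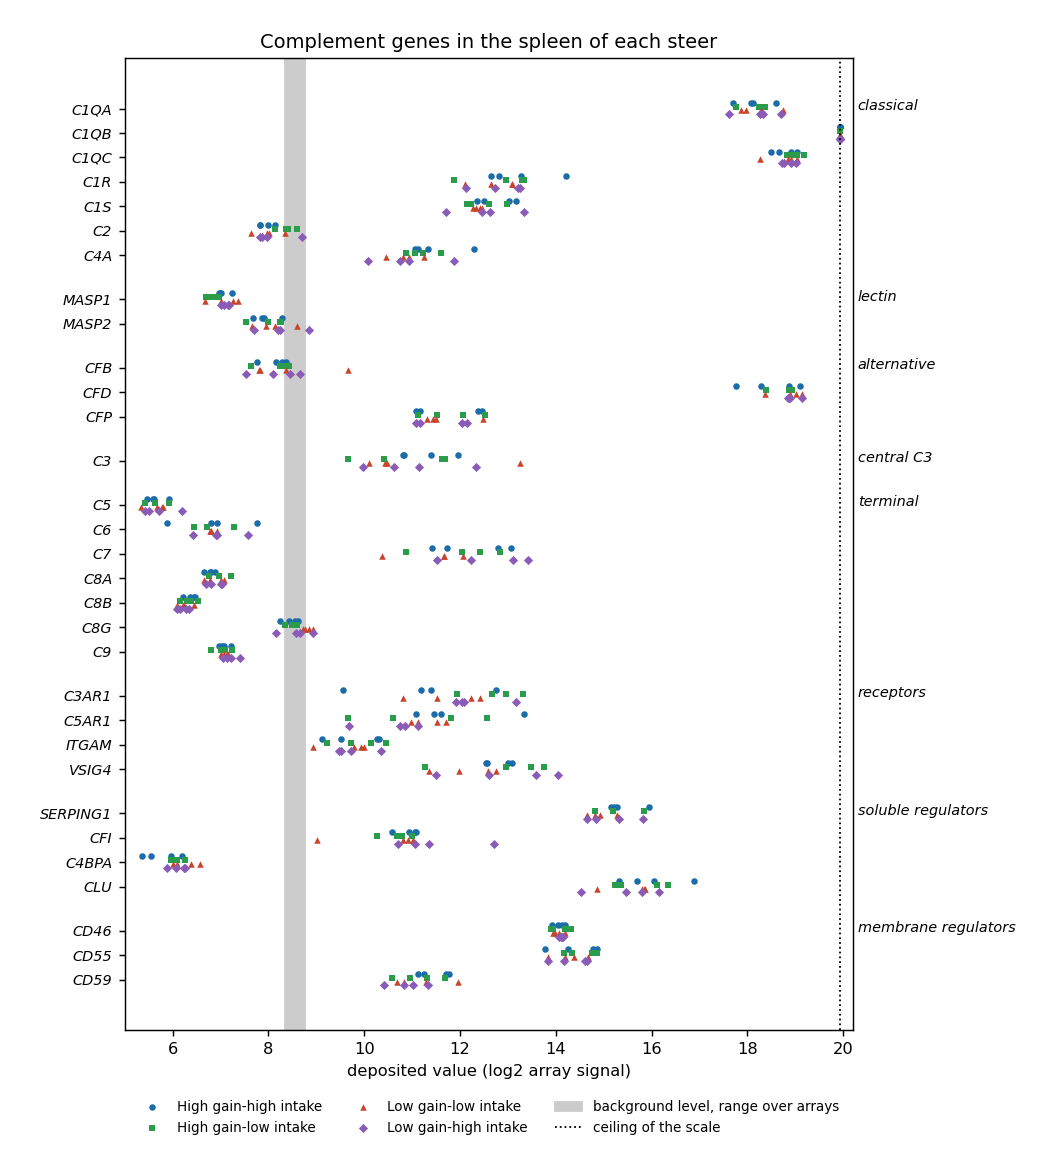
Deposited log2 array signal (horizontal axis) of the 31 complement genes in each of the 16 steers, with colour and marker for the group, the background level shaded over its range of 8.34 to 8.76 and the ceiling of 19.93 dotted. The C1q chains and CFD lie near the ceiling, while the terminal genes other than C7 and C8G lie below the shaded band.

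In the classical pathway, the 3 chains of C1q (C1QA, C1QB and C1QC), the recognition molecule, were at the top of the scale. C1QB read 19.93 on all 16 arrays and was saturated, so no difference between groups could be measured for it and 30 genes remained for testing. C1QC was 18.49, 18.65, 18.92 and 19.04 in the high gain-high intake steers and 19.04, 18.83, 18.92 and 19.18 in the high gain-low intake steers. It was 18.27, 18.85, 18.92 and 19.04 in the low gain-low intake steers and 18.92, 18.72, 18.77 and 19.02 in the low gain-high intake steers. All 4 groups overlapped, and the whole range over the 16 steers was 0.91. C1QA ranged between 17.61 and 18.74, with a within-group SD of 0.38.

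C1R and C1S, the proteases carried by C1q, averaged 12.92 and 12.54 with within-group SDs of 0.60 and 0.43. C4A, which C1s cleaves, averaged 11.10 and spread over 2.21. C2, the protease partner of C4b, was the only classical gene at the edge of background, above it on 3 arrays. C2 was 7.82, 7.82, 8.14 and 7.98 in the high gain-high intake steers and 8.13, 8.36, 8.41 and 8.59 in the high gain-low intake steers. It was 7.64, 8.35, 7.96 and 8.02 in the low gain-low intake steers and 7.82, 8.70, 7.96 and 7.87 in the low gain-high intake steers. The high gain-low intake steers read higher than most others, but overlapped the other groups. The C2 interaction between gain and intake was -0.53 ± 0.28 (SE, unadjusted p 0.0771, limma adjusted p 1). Without low gain-high intake steer 2 it was -0.32, and without low gain-low intake steer 2 it was -0.65 (limma unadjusted p 0.034).

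The lectin proteases MASP1 and MASP2, which cleave C4 and C2 once a lectin has bound, averaged 7.02 and 8.07. MASP1 was above background on 0 arrays and MASP2 on 1. In the alternative pathway, CFD, the protease that activates factor B, lay near the ceiling. CFD was 17.76, 18.29, 18.87 and 19.09 in the high gain-high intake steers and 18.86, 18.38, 18.90 and 18.94 in the high gain-low intake steers. It was 18.36, 18.88, 19.01 and 19.14 in the low gain-low intake steers and 18.88, 18.85, 18.87 and 19.13 in the low gain-high intake steers. The lowest values came from high gain-high intake steers 1 and 2, and the groups overlapped. CFP, or properdin, which stabilises the alternative convertase, averaged 11.71 with a within-group SD of 0.62. CFB, the convertase protease itself, averaged 8.22 and was above background on 1 array, that of low gain-low intake steer 2, at 9.67.

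That same steer had the highest C3 of the study. C3, the component that all pathways cleave, was 10.81, 11.95, 10.82 and 11.40 in the high gain-high intake steers and 11.62, 9.65, 10.42 and 11.68 in the high gain-low intake steers. It was 10.48, 13.26, 10.10 and 10.43 in the low gain-low intake steers and 11.14, 9.98, 10.63 and 12.33 in the low gain-high intake steers. The spread within groups, 1.05, was larger than the 0.40 between the highest and lowest group mean.

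In the terminal pathway, C5, C6, C8A, C8B and C9 were above background on 0 arrays, with means between 5.66 and 7.10. These genes encode plasma proteins of the membrane pore that the liver is known to make. C7, the pore component that first inserts into the membrane, was above background on all 16 arrays with a mean of 12.07. C8G, the small chain of C8, averaged 8.59 and was above background on 11 arrays, all 4 of the low gain-low intake group, 2 in each high gain group and 3 in the low gain-high intake group.

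All 4 receptors found were above background on all 16 arrays. C3AR1 and C5AR1 encode the receptors for the inflammatory fragments C3a and C5a, and C5AR1 averaged 11.24. ITGAM, the alpha chain of complement receptor 3, averaged 9.78, and VSIG4, a complement receptor of tissue macrophages, averaged 12.69. C3AR1 had the widest range of the 31 genes over the 16 steers, 3.76, followed by CFI at 3.69 and C5AR1 at 3.66.

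Among the soluble regulators, SERPING1, the inhibitor of C1r and C1s, averaged 15.18, and CLU, which keeps the terminal complex out of membranes, averaged 15.70. CFI, the protease that inactivates C3b and C4b, averaged 10.87. C4BPA, a chain of the cofactor that helps it, averaged 6.06 and was above background on 0 arrays. The membrane regulators CD46, CD55 and CD59, which protect host cells, averaged 14.08, 14.39 and 11.17. CD46 had the smallest range of the genes that could be tested, from 13.90 to 14.32, with a within-group SD of 0.13, the same as for C9.

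Whether gain and intake went with complement expression was asked with a linear model of the 4 group means. Fewer cells of a type and less RNA per cell cannot be told apart in whole spleen. At an adjusted p under 0.05, 0 of the 30 genes passed in the F test over the groups or in any of the 5 contrasts, and 0 of the 24997 clusters did in this fit. The smallest adjusted p of a complement gene in these contrasts was 0.814, for gain. At an unadjusted p under 0.05, 0 of 30 passed the F test, against 4.67% of all clusters. For gain, high minus low, 0 passed, against 6.06%. For intake, high minus low, 0 passed, against 3.40%. For the interaction, 1 passed, against 4.65%. For low gain-low intake against the other groups, 1 passed, against 5.48%. For high gain-low intake against low gain-high intake, 0 passed, against 5.26%. These member counts lay near or below the background shares and gave no result for the genes as a group.

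The intervals show what 4 steers per group could resolve. Over the 19 genes above background and below the ceiling, the 95% interval of the gain or the intake difference reached 0.51 to either side at the median, 0.18 for the narrowest gene and 1.0 for the widest. For low gain-low intake against the other groups the median reach was 0.59. The gain differences ran between -0.25 for CFD and 0.55 for C5AR1, with 13 positive and 6 negative and a median of 0.14. The intake differences ran between -0.47 for C3AR1 and 0.66 for C7, with 12 positive and 7 negative and a median of 0.02. For low gain-low intake, 5 were positive and 14 negative, with a median of -0.16. Over the 12635 clusters above background on at least 4 arrays, the median difference was 0.023 for gain, 0.004 for intake and -0.016 for low gain-low intake. The share of each sign over those clusters was not counted. The 19 genes share the same arrays and are not independent, so nothing was read from their signs for the genes as a group.

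**Figure D2:**
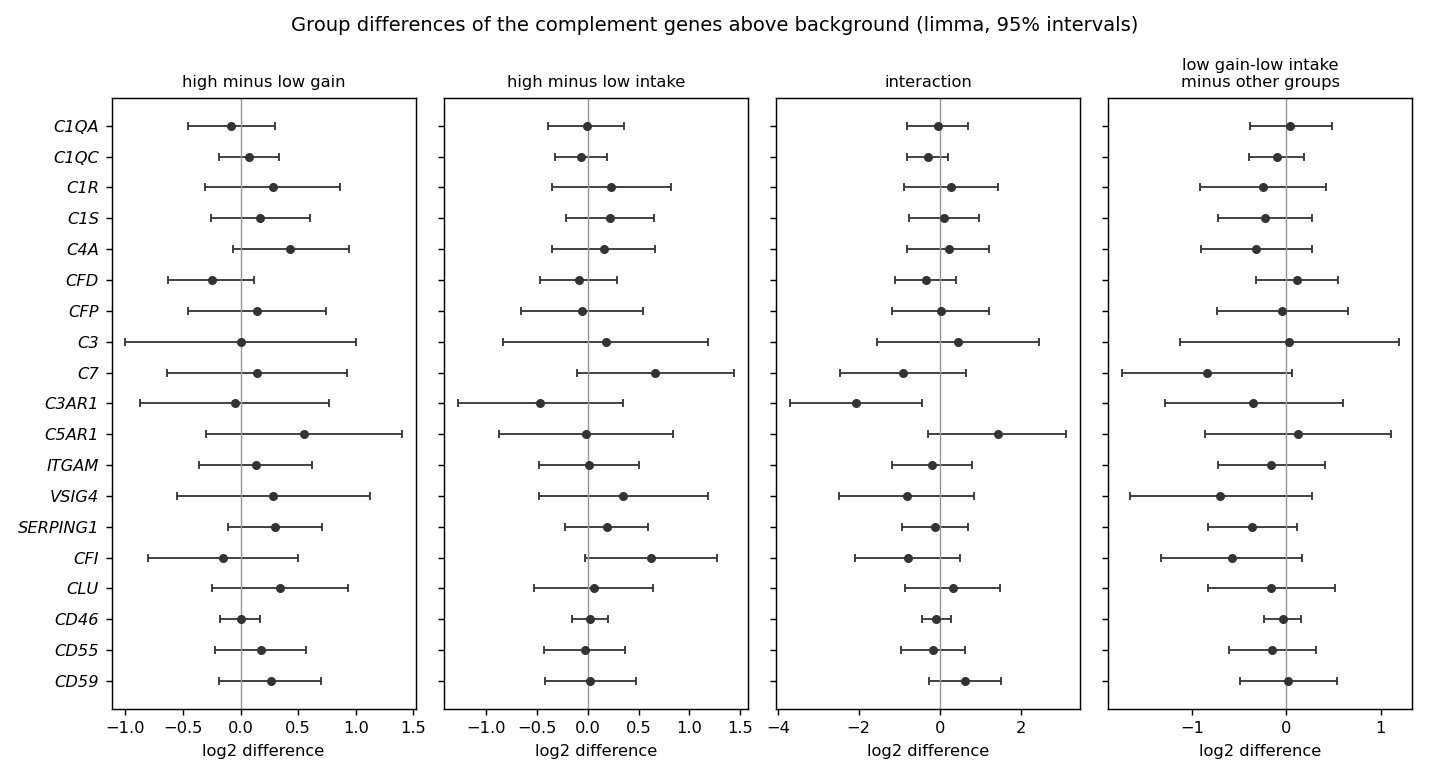
Log2 differences (points) with 95% intervals from limma (bars) for the 19 complement genes above background on all arrays and below the ceiling, in 4 contrasts with separate horizontal scales. Every interval crosses 0 except that of the C3AR1 interaction, which lies between -3.70 and -0.43 without adjustment over the clusters tested.

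C3AR1 had the smallest F test p of the 30 genes (unadjusted p 0.0684, limma adjusted p 1). It was 11.40, 11.18, 12.74 and 9.56 in the high gain-high intake steers, and 11.51, 12.23, 10.80 and 12.41 in the low gain-low intake steers. It was 12.95, 13.32, 12.67 and 11.94 in the high gain-low intake steers, and 13.17, 12.05, 12.09 and 11.92 in the low gain-high intake steers. C3AR1 read lower in most of the steers whose gain and intake were both high or both low, with overlap between the sets. The interaction, taken as high minus low intake among high gain steers less the same difference among low gain steers, was -2.07 ± 0.77 (SE, unadjusted p 0.0166, limma adjusted p 1). An exact two-sided permutation test on the mean of those 8 steers minus that of the other 8, -1.03, gave p 0.0218 before any adjustment over genes. The interaction lay between -2.57 without high gain-high intake steer 3 and -1.52 without high gain-high intake steer 4, and its sign was negative in all 16 such fits.

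C5AR1, the sister receptor, differed in the other direction. It was 11.61, 11.45, 11.07 and 13.33 in the high gain-high intake steers and 10.98, 11.12, 11.52 and 11.71 in the low gain-low intake steers. It was 10.61, 9.67, 11.81 and 12.57 in the high gain-low intake steers and 10.85, 11.13, 9.68 and 10.75 in the low gain-high intake steers. Its interaction was 1.43 ± 0.80 (SE, unadjusted p 0.0946, limma adjusted p 1), and the groups overlapped. It fell to 0.94 without high gain-high intake steer 4, to 0.93 without high gain-low intake steer 2, and was 1.90 (limma unadjusted p 0.0216) without high gain-low intake steer 4. High gain-high intake steer 4 had the highest C5AR1 and the lowest C3AR1 of all steers. High gain-low intake steer 2 had the lowest C5AR1 and the highest C3AR1, so the opposite signs rest in part on the same animals.

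C8G was the 1 gene with an unadjusted p under 0.05 for low gain-low intake against the other groups. It was 8.92, 8.77, 8.85 and 8.73 in the low gain-low intake steers, against 8.25, 8.62, 8.55 and 8.42 in the high gain-high intake steers. It was 8.49, 8.59, 8.58 and 8.35 in the high gain-low intake steers and 8.66, 8.92, 8.16 and 8.57 in the low gain-high intake steers. All 4 low gain-low intake steers read above every high gain steer, and 1 low gain-high intake steer reached the same top value. The difference was 0.30 ± 0.12 (SE, unadjusted p 0.0223, limma adjusted p 0.825), and the exact two-sided permutation p was 0.0143 before any adjustment over genes. All of these values lay close to the background level. The limma unadjusted p was 0.0688 with steer 1 of the low gain-low intake group left out and 0.0512 with its steer 3 left out. It was 0.00679 without low gain-high intake steer 2. The mean of 8 heat shock genes, chosen by earlier results of these animals, was 12.97 to 14.54 in the low gain-low intake steers and between 11.98 and 13.10 in the other steers. Its part in the C8G difference was not tested.

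CFI had the smallest p for intake. It was 11.05, 11.07, 10.94 and 10.58 in the high gain-high intake steers and 12.71, 11.05, 10.71 and 11.35 in the low gain-high intake steers. It was 10.79, 10.27, 10.99 and 10.69 in the high gain-low intake steers and 10.92, 9.01, 11.01 and 10.80 in the low gain-low intake steers. The high minus low intake difference was 0.62 ± 0.31 (SE, unadjusted p 0.0608, limma adjusted p 1), and the sets overlapped. It was 0.41 when the steer with the highest CFI (low gain-high intake steer 1) was left out and 0.38 when the steer with the lowest (low gain-low intake steer 2) was. Without low gain-high intake steer 3 it was 0.74 (limma unadjusted p 0.0299).

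C4BPA, below background on every array, was 5.36, 5.96, 5.55 and 6.19 in the high gain-high intake steers and 6.10, 6.26, 5.96 and 6.06 in the high gain-low intake steers. It was 6.39, 6.58, 6.10 and 6.01 in the low gain-low intake steers and 6.25, 5.88, 6.23 and 6.07 in the low gain-high intake steers. The high minus low gain difference was -0.26 ± 0.13 (SE, unadjusted p 0.0616, limma adjusted p 0.814). No level was read from signals this dim.

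C7 had the lowest difference of the 19 genes for low gain-low intake. It was 12.07, 11.66, 11.67 and 10.37 in the low gain-low intake steers, against 11.72, 12.80, 11.41 and 13.06 in the high gain-high intake steers. It was 12.83, 10.87, 12.42 and 12.04 in the high gain-low intake steers and 12.23, 11.52, 13.41 and 13.10 in the low gain-high intake steers. The difference from the other groups was -0.84 ± 0.42 (SE, unadjusted p 0.065, limma adjusted p 0.928), with overlap.

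**Figure D3:**
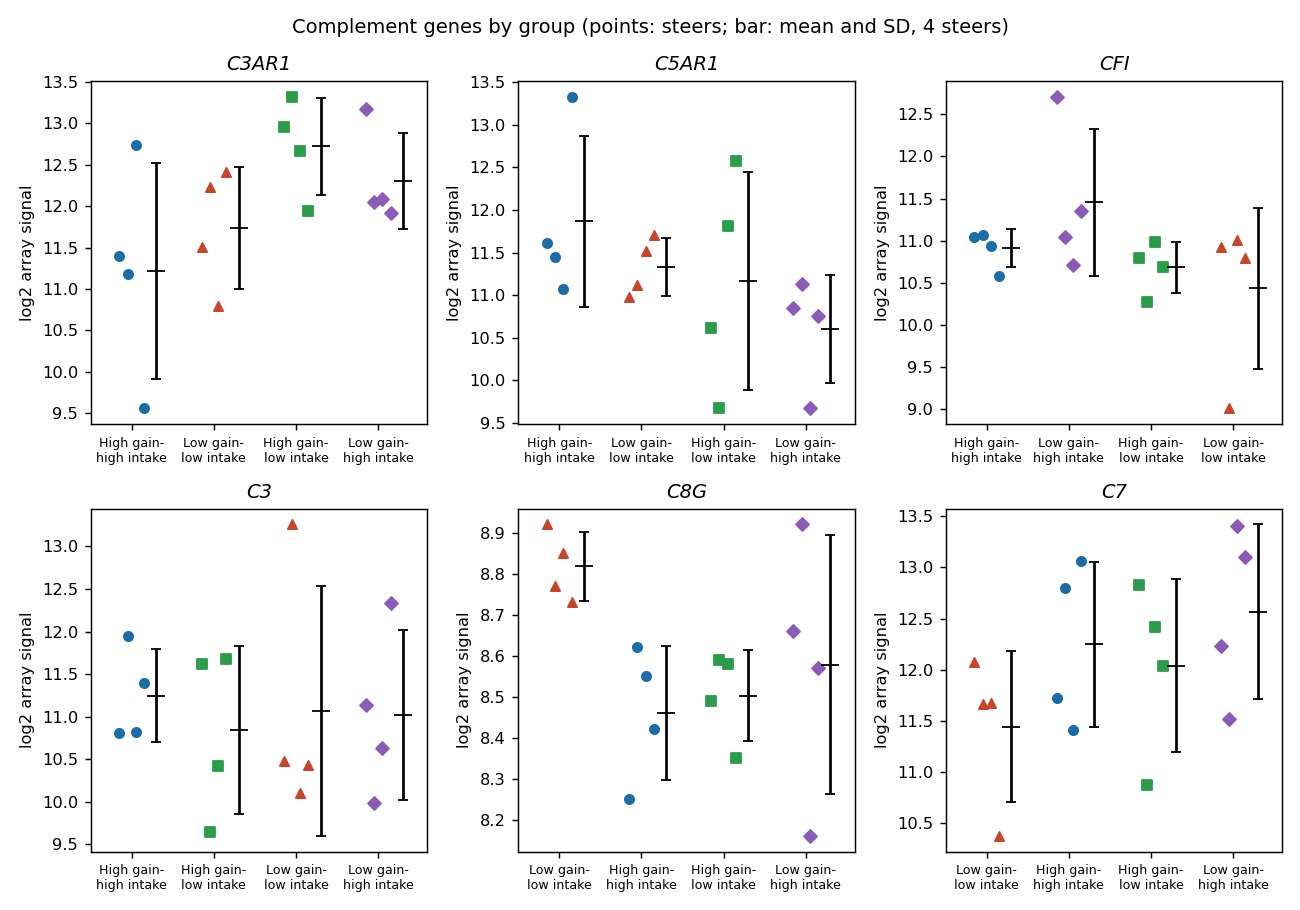
Log2 array signal of C3AR1, C5AR1, CFI, C3, C8G and C7 in each steer (points) with the group mean and SD over 4 steers (bars beside them), each gene on its own vertical scale. C3AR1 averaged 11.22 in high gain-high intake and 11.74 in low gain-low intake steers, and 12.72 in high gain-low intake and 12.31 in low gain-high intake steers.

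Branch means were taken per steer over all members of a branch, including members that could not vary or lay below background. The 7 classical genes include C1QB, saturated on all 16 arrays, and C2, near background, and 5 of the 7 terminal genes were below background on every array. The mean of the 7 classical genes was 14.60 ± 0.21 in the high gain-high intake group, 14.57 ± 0.23 in the high gain-low intake group, 14.41 ± 0.21 in the low gain-low intake group and 14.48 ± 0.28 in the low gain-high intake group (SD, n = 4 each). The mean of the 4 receptors was 11.42 ± 0.15, 11.66 ± 0.53, 11.22 ± 0.45 and 11.40 ± 0.50 in the same order of groups. The spread between group means was 0.19 for the classical genes and 0.43 for the receptors, with within-group SDs of 0.24 and 0.44. The spread of group means was also below the within-group SD for the alternative pathway, C3, the soluble regulators and the membrane regulators, and equal to it, at 0.25, for the lectin proteases. In the terminal pathway the group means spread over 0.16 with a within-group SD of 0.14, so the spread was the larger. Over members above background only, it was also the larger for the soluble regulators, 0.45 with an SD of 0.36, and for C7 as the terminal branch, 1.12 with an SD of 0.81. Means of 4 steers also scatter between groups that do not differ. A spread near the within-group SD, to either side of it, therefore does not mark a branch as differing. No test was made on these means.

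**Figure D4:**
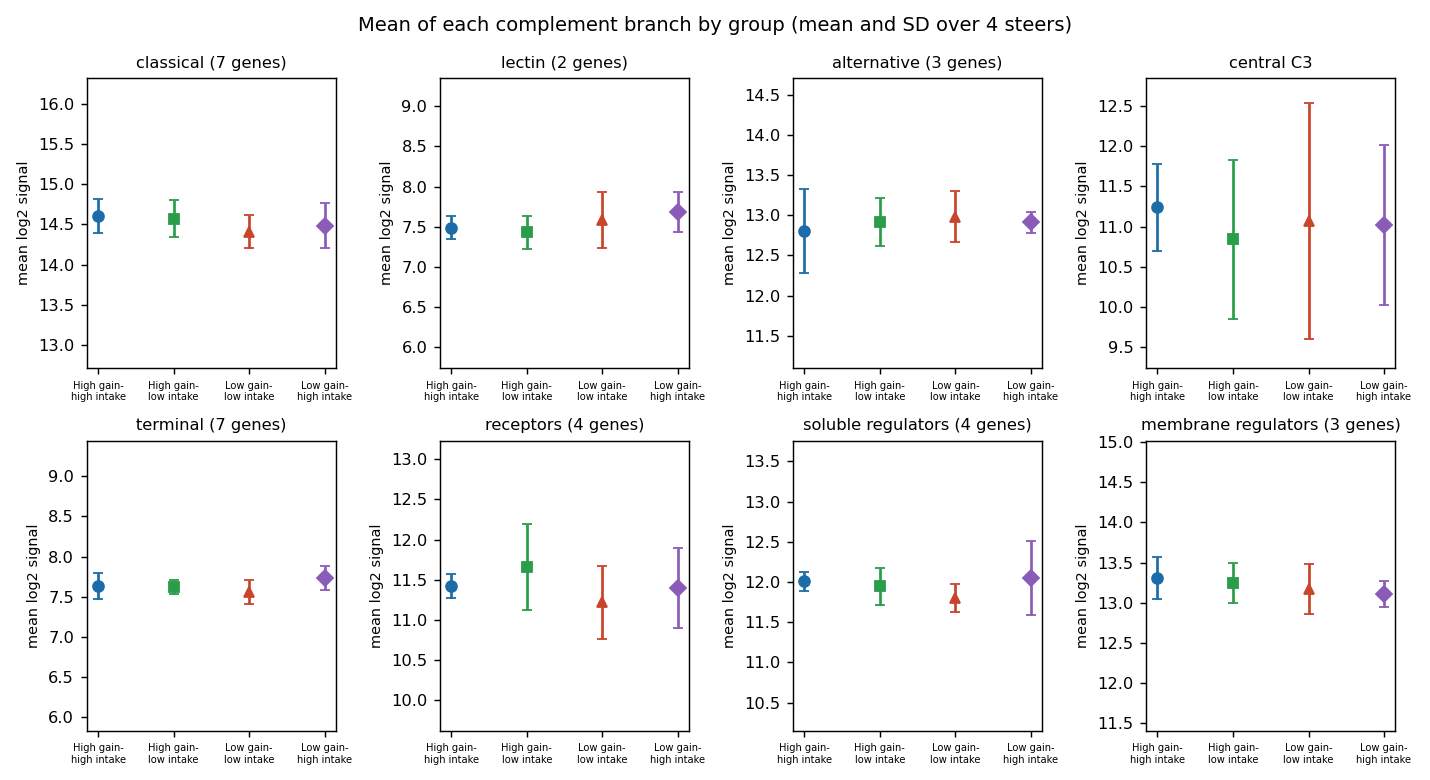
Mean log2 array signal of each complement branch (points) with the SD over 4 steers (bars) in the 4 groups, on vertical scales of equal length. The group means of the receptors spread over 0.43, and C3 alone, with a within-group SD of 1.05, has the longest bars.

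Variation between steers was set against cell type markers. Of 76 pairs of 19 genes with 4 marker means (macrophage, neutrophil, B cell and follicular dendritic cell, stroma), 13 had an unadjusted permutation p under 0.05 by Pearson's r and 1 an adjusted one, while by Spearman's rho the smallest adjusted p was 0.140. VSIG4 and the macrophage markers had r = 0.77 (permutation p 0.00059, adjusted p 0.0448) and rho = 0.61 (permutation p 0.0151, adjusted p 0.229) over 16 steers. With the group means removed r was 0.74, and without the 2 steers farthest from the median macrophage level it was 0.60 (permutation p 0.0221, unadjusted). C3 and the stroma markers had r = 0.72 (permutation p 0.00137, adjusted p 0.0521) and rho = 0.61 (permutation p 0.0142, adjusted p 0.229). Without the 2 steers farthest from the median, which include low gain-low intake steer 2, r was 0.53 (permutation p 0.0498, unadjusted). C3 also had r = 0.66 with the neutrophil markers (permutation p 0.00555, adjusted p 0.105, rho = 0.53), which fell to 0.44 without the 2 farthest steers. Of the 7 neutrophil markers, 2 were above background on all 16 arrays and 1 on none, so their mean rests partly on dim clusters.

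ITGAM and the B cell and follicular dendritic cell markers had r = 0.70 (permutation p 0.00214, adjusted p 0.0542) and rho = 0.73 (permutation p 0.00184, adjusted p 0.140), and r was 0.72 without the 2 farthest steers. ITGAM also had r = 0.58 with the neutrophil markers (permutation p 0.0185, adjusted p 0.201) and r = 0.53 with the macrophage markers (permutation p 0.0343, adjusted p 0.252). C1QA and C1QC, for which macrophages are a known source, had r = 0.46 and 0.30 with the macrophage markers (permutation p 0.0746 and 0.258, adjusted p 0.354 and 0.612). Their rho was 0.47 and 0.33 (permutation p 0.0699 and 0.210, adjusted p 0.315 and 0.703), and r without the 2 farthest steers was 0.49 and 0.43. Neither chain reached the ceiling on any array. The macrophage mean was 14.18 ± 0.34 in the low gain-low intake group, against 14.43 ± 0.20 in the high gain-high intake group, 14.38 ± 0.36 in the high gain-low intake group and 14.39 ± 0.35 in the low gain-high intake group (SD, n = 4 each).

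Between complement genes that act together, 12 pairs were set side by side after their values had been seen, so they are described without a test. C1QA and C1QC had r = 0.56 and rho = 0.76 over 16 steers, and r was 0.62 with the group means removed. CFD and CFP had r = 0.62, C3 and C4A had r = 0.61 with rho = 0.79, and C1S and its inhibitor SERPING1 had r = 0.59. C3AR1 and C5AR1 had r = -0.64 and rho = -0.52, and r was -0.61 with the group means removed but -0.23 without the 2 steers farthest from the median. CD46 and CD55 had r = 0.15. C1R had r = 0.51 with C1S and 0.31 with SERPING1, CD55 and CD59 had 0.34, and C7 and CLU had 0.08. ITGAM and ITGB2, the 2 chains of complement receptor 3, had r = 0.37, and 0.02 without the 2 farthest steers. C3 and CFI had r = -0.29, and 0.36 without the 2 farthest steers. All points of a pair share the arrays, and centring each array on its median left these values between -0.62 and 0.62.

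**Figure D5:**
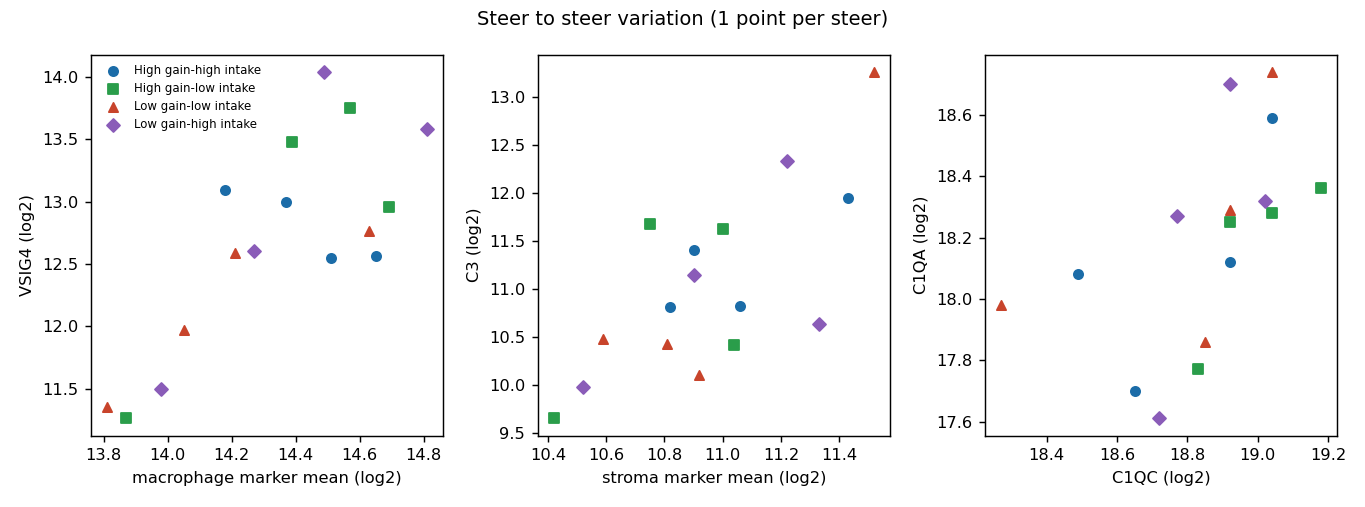
VSIG4 against the mean of the macrophage markers, C3 against the mean of the stroma markers and C1QA against C1QC, all log2 array signals with 1 point per steer. The correlations are 0.77, 0.72 and 0.56 over the 16 steers.

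Of 35 further genes of the complement system outside the 32, 24 were found, 6 were above background on all 16 arrays and 14 on none. The 6 were CR2, the complement receptor of B cells and follicular dendritic cells, at a mean of 15.27, ITGB2, the beta chain of complement receptor 3, at 12.90, the lectin ficolin FCN1 at 13.03, C1QBP at 12.54, PROS1 at 10.22 and CALR at 16.64. MBL2, a lectin that the liver makes, averaged 5.64 and was above background on 0 arrays. At an adjusted p under 0.05, 0 of the 24 passed in any test. At an unadjusted p under 0.05, 1 passed the F test (4.67% of all clusters), 3 gain (6.06%), 1 intake (3.40%), 0 the interaction (4.65%), 1 low gain-low intake against the other groups (5.48%) and 3 high gain-low intake against low gain-high intake (5.26%). With 24 genes these are counts of a few, and nothing was read from them for the list.

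SUSD4, a complement inhibitor in the membrane, was the 1 gene of the F test (unadjusted p 0.036, limma adjusted p 1). It was 6.93, 7.21, 7.30 and 7.21 in the high gain-high intake steers and 7.35, 7.15, 7.14 and 6.94 in the high gain-low intake steers. It was 7.29, 7.41, 7.13 and 7.31 in the low gain-low intake steers and 7.33, 7.68, 7.59 and 7.47 in the low gain-high intake steers. The high minus low gain difference was -0.25 ± 0.09 (SE, unadjusted p 0.0145, limma adjusted p 0.767), and the exact two-sided permutation p was 0.00995 before any adjustment. SUSD4 was above background on 0 arrays. The others were named after their values were seen, and all had a limma adjusted p over 0.05. For gain, C1QBP differed by 0.26 (exact permutation p 0.0283) and PROS1 by -0.37 (exact permutation p 0.0297). For intake, PTX3 differed by 0.45 (exact permutation p 0.0446), and for low gain-low intake C1QBP differed by -0.30 (exact permutation p 0.0302). For high gain-low intake against low gain-high intake, CPN1 differed by -0.27 (exact permutation p 0.0286, the smallest that 4 against 4 allows), SUSD4 by -0.37 (exact permutation p 0.0571) and PROS1 by -0.53 (exact permutation p 0.0857). PTX3 and CPN1 were above background on 0 arrays. Without low gain-high intake steer 1 the PROS1 differences were -0.25 and -0.28. The study's gene names give the cluster LOC518224 as CD46, but the platform annotation does not. This cluster was above background on 0 arrays and was not counted as CD46. Its mean was 6.32 ± 0.14 in the high gain-high intake group and 6.58 ± 0.16 in the high gain-low intake group. In the low gain-low intake group it was 6.48 ± 0.09, and in the low gain-high intake group 6.62 ± 0.10 (SD, n = 4 each). No test of its group differences is given here.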

How the data were processed

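Each of the 16 steers had its spleen RNA hybridised to an Affymetrix Bovine 1.1 ST array. The authors normalized the probes for GC content, stretched the signal with SST and applied RMA in Affymetrix Expression Console, which made the log2 values they deposited. Transcriptome Analysis Console is the other program in the submitters' processing notes. Program versions: not given in the sources used here. Stretching and the ceiling of the scale affect the size of differences, and the number of arrays limits the precision. Of 26773 features, 1776 whose ID precedes the first annotated ID were dropped, leaving 24997, 18790 of them with 1 gene symbol in the platform annotation. Of these symbols, 31 of the 32 complement genes were found and 31 matched RefSeq.

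Members, background rule and lists were chosen with earlier results of these data known. The 4 group means were fitted with limma 3.58.1 in R 4.3.3 (lmFit, eBayes), and p was adjusted by Benjamini-Hochberg over all features. The authors' model supplied the F test, gain, intake and interaction, and 2 contrasts were added. Steers are separate animals. Replicate numbers pair nothing. Exact permutation tests shuffled steers over all groups, with 0.000155 as the smallest p for 8 against 8 and 0.000549 for 4 against 12. Those for high gain-low intake against low gain-high intake shuffled only the 8 steers of these 2 groups, with 0.0286 as the smallest p. Correlations used 100000 resamples, 2-sided, with adjustment over 76 pairs. Genes named with values in every steer are the 3 brightest, the 6 with the smallest F p and any with an unadjusted p under 0.05 in a contrast. C3 and C7 were added after their values were seen. Markers of T cells, smooth muscle, endothelium, dendritic cells, pancreas and adipocytes served only to check the tissue: 6 of 6, 4 of 4, 4 of 4, 4 of 4, 0 of 4 and 0 of 3 of those found were above background on all arrays, as were 2 of 7 neutrophil and 6 of 7 stroma markers. The fit was tested on simulated data. Alternatives were ordinary least squares, moderation with an intensity trend and robust to outliers, weighting of arrays, median centring, quantile normalization, a filter on dim features and leaving out each steer. The pairs of complement genes were added after seeing the data.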

Additional observations from a re-analysis of the deposited data

Results flagged for a closer look

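Within groups of 4 steers, 10 single values out of 120 sets of 4 stood apart from the other 3 by Dixon's criterion, and chance gives about 1 in 20. In the low gain-low intake group, steer 2 had 13.26 for C3, against 10.10 to 10.48 in the other steers of the group, and 9.01 for CFI, against 10.80 to 11.01. Steer 4 of that group had 12.47 for CFP, against 11.32 to 11.50, and steer 3 had 14.86 for CLU, against 15.79 to 15.86. In the low gain-high intake group, steer 1 had 13.17 for C3AR1, against 11.92 to 12.09, steer 2 had 8.70 for C2, against 7.82 to 7.96, and steer 4 had 19.13 for CFD, against 18.85 to 18.88. In the high gain-low intake group, steer 2 had 18.38 for CFD, against 18.86 to 18.94. In the high gain-high intake group, steer 4 had 15.95 for SERPING1, against 15.15 to 15.27, and steer 3 had 7.23 for MASP1, against 6.96 to 7.0, a gene below background on all arrays.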

How the results depend on the processing

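The count of complement genes at an adjusted p under 0.05 was 0 in every comparison under every alternative run. Over all clusters, low gain-low intake against the other groups gave 23 by ordinary least squares and 3 with array weights. It gave 11 without low gain-low intake steer 2, 2 without high gain-high intake steer 4 and 1 without low gain-low intake steer 4. Any other comparison or setting gave at most 1. By ordinary least squares the smallest adjusted p in that comparison was 0. On every array 21 clusters read the ceiling, so they held no difference to test. Whether the 23 include them was not checked, so the 23 were not read as clusters that differ. At an unadjusted p under 0.05, array weights gave 1 gene in the F test, for gain and for intake, and 2 for low gain-low intake against the other groups. For gain, ordinary least squares and quantile normalization also gave 1. Leaving out each steer in turn gave 0 to 2 genes in the F test, for gain, for intake and for high gain-low intake against low gain-high intake, and 1 to 2 for the interaction. For low gain-low intake it gave 0 (without low gain-low intake steer 3) to 3 (without high gain-low intake steer 2). The F test and the intake count were 2 without low gain-high intake steer 2, and gain was 2 without high gain-high intake steer 2. High gain-low intake against low gain-high intake was 2 without low gain-low intake steer 2. The interaction was 2 without high gain-low intake steer 4, low gain-low intake steer 2 or low gain-high intake steer 1. The cause was not tested. No difference with an unadjusted p under 0.05 changed sign. Genes above background numbered 21, 18 and 20 with the 90th or 99th percentile or the array median as the level. The terminal branch is C7 alone when limited to genes above background, and its differences then were 0.14 for gain, 0.66 for intake and -0.84 for low gain-low intake. Each gene had 1 cluster, so choosing the brightest cluster gave nothing to compare. No analysis matched by slaughter day was possible because the day of each steer was not given. Dim genes and those at the ceiling limit what could be measured.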
